A study of Mus musculus with 96 samples.

Results

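The medullary thick ascending limb (MTAL) and the outer medullary collecting duct (OMCD) run side by side in the renal medulla, and their messenger RNA was compared here gene by gene. The members were the sample columns labelled with either segment, 13 of 96 samples in the series: 6 pieces of MTAL from 3 mice and 7 pieces of OMCD from 4 mice. All came from kidneys of pathogen-free male C57BL/6 mice of 6 to 8 weeks that ate normal chow and drank freely, and no mouse carried a labelled allele or received a treatment. The series charts gene expression along the whole mouse nephron by sequencing single microdissected segments from very small amounts of RNA. The cortical thick ascending limb (CTAL, 8 pieces from 5 mice) and the cortical collecting duct (CCD, 7 pieces from 5 mice) of mice of the same strain, sex and age served as the cortical counterparts. Pieces of a mouse were averaged, so a mouse is the replicate throughout, and values per mouse are given in the order of the mouse numbers.

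The thick ascending limb reabsorbs sodium chloride without letting water follow, which dilutes the tubule fluid and loads the medulla with salt. Its cells are packed with mitochondria that fuel the sodium pump. The outer medullary collecting duct holds principal cells, which take up water and sodium under vasopressin and aldosterone, and intercalated cells, which secrete acid through a proton pump.

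The labels matched their markers in every piece. Umod, which encodes uromodulin, the main protein of normal urine and a product of the thick limb, ranged from 17146 to 26336 TPM (the deposited transcript share of each library, scaled by transcript length) in the 6 MTAL pieces and from 0.21 to 9.82 TPM in the 7 OMCD pieces. Aqp3, the basolateral water channel of principal cells, ranged from 0 to 0.05 TPM in MTAL and from 4274 to 5886 TPM in OMCD. Slc12a1, the thick limb salt carrier, and Cldn16, a thick limb tight junction protein, were at least 3343 and 15.2 TPM in every MTAL piece. In OMCD the principal cell water channel Aqp2 was at least 17704 TPM, and the intercalated cell genes Slc4a1 (anion exchanger 1) and Atp6v1g3 (a proton pump subunit) were at least 1334 and 411 TPM. None of these 3 OMCD markers passed 1.68 TPM in any MTAL piece. OMCD pieces hold several cell types, and in a whole segment fewer cells of a type and less RNA per cell cannot be told apart.

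The OMCD libraries stood apart in a low background. Between 16644 and 20672 genes reached 1 TPM in the OMCD pieces, against 12567 to 12970 in MTAL. Odorant and vomeronasal receptor genes, which a tubule is not known to use, summed to between 381 and 941 TPM in OMCD pieces and to between 6.46 and 35.6 TPM in MTAL pieces. The CCD pieces held 22.6 to 72.3 TPM of them. Genes were therefore weighed only from a group mean of 10 TPM. That limit need not clear all of the background. The transcripts Gm10800, Gm10801 and AU021092 summed to 1108 to 3476 TPM in OMCD pieces and to 13.5 to 69.9 TPM in MTAL pieces. The part of background in the genes called higher in OMCD was not tested. On the other side, 6 of the 13 protein genes of the mitochondrial genome are listed at 0 in every MTAL and OMCD mouse, although every cell uses them, so a value of 0 in the table can be a failed estimate. TPM keep no read depth, so none is given.

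Of 33793 genes tested, 9806 reached 10 TPM in at least one of the segments. Among these, 691 were higher in MTAL (7.05%) and 2812 higher in OMCD (28.7%), by limma on log2(TPM + 1) with an adjusted p under 0.05 (Benjamini-Hochberg over all genes tested) and a log2 difference of at least 1. All log2 differences are on the log2(TPM + 1) scale, MTAL minus OMCD, with the standard error (SE) of the fit, and understate the change of low genes. The median of the 9806 genes was -0.55, so the middle gene was higher in OMCD. Rescaling every mouse by the median ratio of its genes moved that median by 0.47 and the split to 1199 genes higher in MTAL (12.2%) and 1631 higher in OMCD (16.6%), and quantile normalization gave 1178 and 1358 (13.8%). MTAL calls thus formed 19.7% of all calls on the TPM as deposited, 42.4% after median ratio rescaling and 46.5% after quantile normalization. The mice of one segment resembled each other closely, with Pearson correlations over these genes of 0.954 to 0.984 within a segment and 0.642 to 0.662 between segments.

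**Figure D1:**
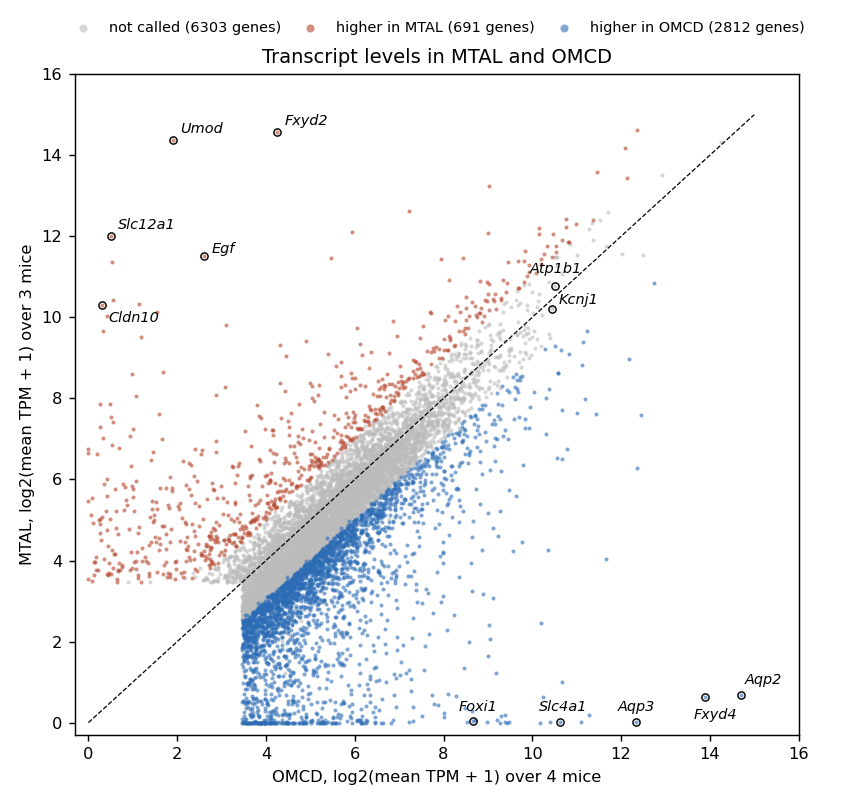
Mean transcript level of each gene of at least 10 TPM in either segment, as log2(mean TPM + 1), in OMCD (x axis, 4 mice) and MTAL (y axis, 3 mice). Red points are the 691 genes higher in MTAL, blue points the 2812 higher in OMCD, grey points the rest, and the dashed line marks equal levels.

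Umod and Slc12a1 led the genes higher in MTAL. Umod stood at 21184, 24614 and 17908 TPM in the MTAL mice and at 0.35, 3.12, 1.87 and 5.64 TPM in the OMCD mice, a log2 difference of 12.78 (SE 0.40, adjusted p = 1.5e-28). Slc12a1, the Na-K-2Cl cotransporter NKCC2 that carries salt into the thick limb cell, followed with 3852, 4972 and 3525 TPM against 0.31, 0.49, 0.57 and 0.33 TPM (11.48, SE 0.65, adjusted p = 3.8e-19). A pair of protein phosphatase 1 inhibitors were among the leaders. Ppp1r1a (inhibitor-1) measured 2463, 2573 and 2809 TPM in MTAL and no more than 0.59 TPM in OMCD, and Ppp1r1b (DARPP-32) 1315, 1327 and 1189 TPM against at most 1.43 TPM. The other named leaders were Fxyd2, Cldn10, Klk1, Egf and Ptger3, all described with their families, and Gpx6, Nccrp1 and Lpl. Gpx6, a glutathione peroxidase, was at 1398, 1402 and 1335 TPM in MTAL and at 0.32, 1.11, 0.46 and 0 TPM in OMCD. Lpl, the lipase that frees fatty acids from lipoproteins, was at 1104, 1164 and 1113 TPM against 2.57, 1.4, 2.39 and 1.33 TPM (log2 difference 8.64, SE 0.39). Nccrp1, an F-box-like protein, was at 643, 887 and 879 TPM in MTAL and at most 0.47 TPM in OMCD.

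The largest excesses in OMCD included genes of principal and intercalated cells. Aqp2, the vasopressin-regulated water channel, reached 29290, 34804, 23813 and 19190 TPM in OMCD and 0.12, 1.26 and 0.44 TPM in MTAL, a log2 difference of -14.07 (SE 0.49, adjusted p = 8.2e-27). Hsd11b2, the enzyme that shields the mineralocorticoid receptor from glucocorticoids, measured 1991, 2448, 2926 and 2599 TPM against 0.24, 0.16 and 0 TPM (-11.10, SE 0.21). Rhcg, an ammonia channel, stood at 1679, 1962, 2626 and 2460 TPM in OMCD and at 0, 0.01 and 0 TPM in MTAL. Among the other leaders were the mucin gene Muc20 (1248 to 1434 TPM in OMCD, at most 0.03 in MTAL), the alcohol dehydrogenase Adh1 (1264 to 1811 against at most 1.78) and Npnt, the matrix protein nephronectin (812 to 1417 against at most 0.87). Mcoln3, a lysosomal cation channel, ran from 453 to 824 TPM in OMCD with at most 0.045 TPM in MTAL. That the mice of the segments did not overlap was a condition for naming a leader, and held for 73.4% of all genes. Fxyd4, Aqp3, Slc4a1, Scnn1b and Aqp6 completed the leaders.

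The listed genes of sodium chloride entry and exit did not share one direction. Of 12 listed, 11 reached 10 TPM, 5 were higher in MTAL, 2 higher in OMCD (Slc12a2 among them) and 4 not called. Their median log2 difference was 0.19, against -0.55 over all genes, of which 7.05% were higher in MTAL and 28.7% in OMCD. Kcnj1, the apical potassium channel ROMK that recycles potassium in the thick limb and secretes it in the collecting duct, was abundant in both segments: 1040, 1404 and 1098 TPM against 754, 1564, 1834 and 1391 TPM. The segments overlapped, and its log2 difference of -0.16 had a 95% interval of -0.69 to 0.37 and became 0.32 after median ratio rescaling. Bsnd, which encodes the channel subunit barttin, was higher in MTAL, with 271, 350 and 306 TPM against 81.5, 84.2, 107 and 108 TPM (1.70, SE 0.21). Slc9a3, the apical sodium-proton exchanger NHE3, was found at 102 to 172 TPM in MTAL and at most 0.47 TPM in OMCD, and Kcnt1, a sodium-activated potassium channel, at 44.6 to 84.4 TPM against at most 0.98 TPM. Slc12a2, the basolateral cotransporter NKCC1, ran low in both, 2.09 to 3.4 TPM in MTAL and 9.81 to 16.2 TPM in OMCD (-1.89, SE 0.20), and its difference shrank to -0.93 after quantile normalization.

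**Figure D2:**
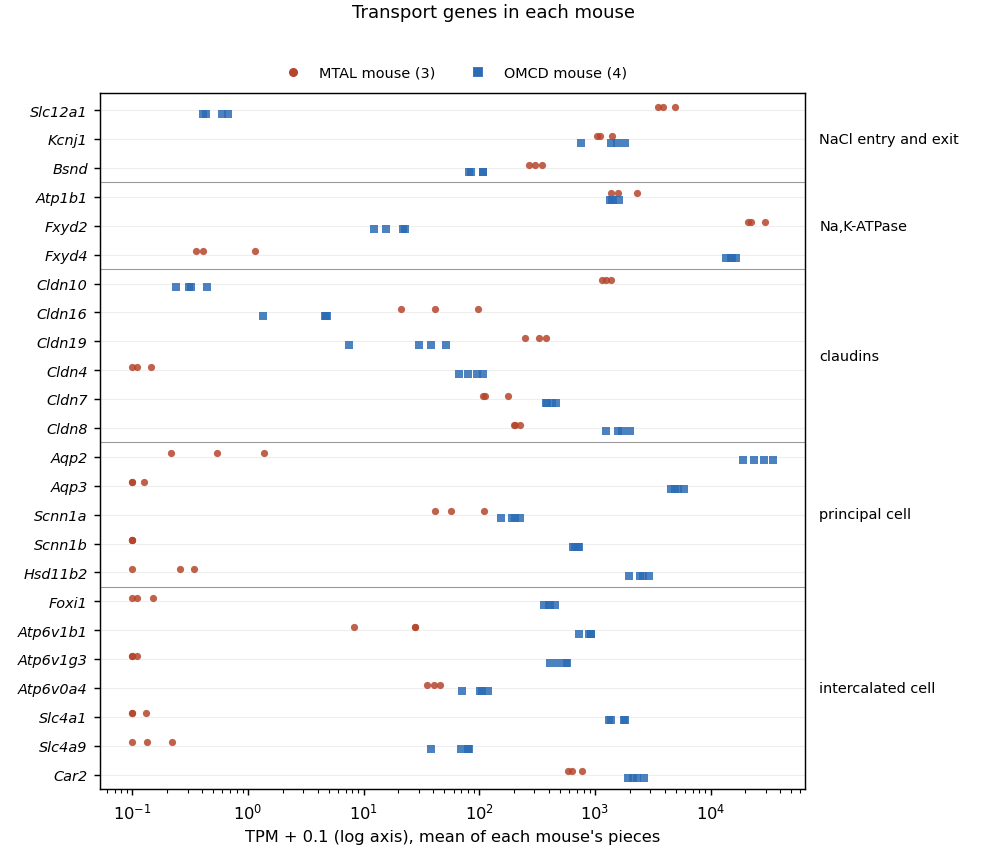
Transcript level of transport genes in each mouse (x axis, TPM + 0.1 on a log axis, one row per gene); red circles are the 3 MTAL mice and blue squares the 4 OMCD mice. Kcnj1 and Atp1b1 overlap between the segments, and the principal and intercalated cell genes lie higher in OMCD.

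Accessory subunits of the sodium pump differed in direction. Atp1b1, the beta subunit that brings the pump to the membrane, overlapped between segments with 1577, 2296 and 1373 TPM against 1362, 1421, 1410 and 1619 TPM, and its difference of 0.23 had a 95% interval of -0.06 to 0.53 and became 0.72 after median ratio rescaling (limma, adjusted p = 2.9e-05, under the fold limit) and -0.23 after quantile normalization. The small regulatory FXYD proteins lay in opposite order. Fxyd2, the gamma subunit, reached 22331, 21254 and 29330 TPM in MTAL and 15.6, 21.7, 22.5 and 12.2 TPM in OMCD (10.35, SE 0.18, adjusted p = 3.8e-38). Fxyd4, the corticosteroid-induced CHIF, reached 16460, 15308, 13684 and 15148 TPM in OMCD and 0.31, 0.26 and 1.06 TPM in MTAL (-13.32, SE 0.48, adjusted p = 2.9e-26). Fxyd3 was also higher in OMCD, at 16.9 to 44.8 TPM against at most 0.075 TPM. Over the 8 listed pump genes, 7 reached 10 TPM, 2 were higher in MTAL and 2 in OMCD, against 7.05% and 28.7% of all genes.

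Among 10 kinases and scaffolds that regulate salt transport, 9 reached 10 TPM, with 1 higher in MTAL and 3 in OMCD (median -0.67), close to the 7.05% and 28.7% of all genes and their median of -0.55. Wnk4, a kinase of the pathway that activates cation-chloride cotransporters, was higher in MTAL at 342, 348 and 390 TPM against 64.7, 58.1, 70.8 and 60.8 TPM (2.48, SE 0.23). Its downstream kinase gene Stk39 (SPAK) was lower in MTAL, 80, 122 and 89.7 TPM against 243, 320, 188 and 220 TPM, with a log2 difference of -1.31 that became -0.82 after median ratio rescaling and then missed the fold limit. Sgk1, the aldosterone-induced kinase that raises sodium channel activity, was at 441, 244, 236 and 83 TPM in OMCD and at 3.47, 10.7 and 9.13 TPM in MTAL (-4.78, SE 0.53), and its OMCD mice differed widely among themselves. Nedd4l, the ubiquitin ligase that Sgk1 restrains, was likewise higher in OMCD, at 240 to 288 TPM against 42.6 to 57.1 TPM.

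Claudins set what passes between cells, and some of them were called in each direction. Of 21 listed claudins 10 reached 10 TPM, 3 of them higher in MTAL, 4 higher in OMCD and 3 not called (median -0.31), against 7.05% and 28.7% of all genes. Cldn10, whose thick limb form makes a sodium pore, was at 1150, 1241 and 1377 TPM in MTAL and at no more than 0.34 TPM in OMCD (10.00, SE 0.33). Cldn19 followed with 247, 329 and 377 TPM against 7.42, 51.7, 37.8 and 29.7 TPM (3.67, SE 0.50, and 3.00 without OMCD mouse 1). Its partner Cldn16, needed for calcium and magnesium uptake, varied among the MTAL mice, with 41.2, 98 and 21 TPM against 1.26, 4.56, 4.72 and 4.58 TPM (3.31, SE 0.38). Cldn8, a sealing claudin of the collecting duct, showed the reverse order at 1248, 1721, 2013 and 1575 TPM in OMCD and 201, 205 and 226 TPM in MTAL (-2.94, SE 0.27). Cldn4, with which it forms a chloride pathway, was at 66 to 109 TPM in OMCD and at most 0.045 TPM in MTAL. Cldn7 (380 to 464 against 107 to 177 TPM) and the scarce Cldn6 (8.63 to 16 against 0.22 to 0.79 TPM) were higher in OMCD as well. Casr, the calcium-sensing receptor, was higher in MTAL at 43.4, 46.9 and 30.6 TPM against 1.57, 2.1, 3.27 and 2.89 TPM (3.60, SE 0.18), and the calcium buffer Calb1 higher in OMCD at 19.3 to 56.5 TPM.

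Every listed principal cell gene was higher in OMCD, 11 of 11 where 28.7% of all genes were, with log2 differences from -1.59 to -14.07 and a median of -9.43. That median belongs to Scnn1b, listed at 0 in all 3 MTAL mice, and depends on the pseudocount. The lists of collecting duct cells were written from knowledge of these cells and with earlier results of these data in view, so their direction is a description of the segment. The subunits of the epithelial sodium channel ENaC did not follow one pattern. Scnn1b stood at 727, 669, 719 and 647 TPM and Scnn1g at 536, 593, 696 and 654 TPM in OMCD, with at most 0.005 TPM of Scnn1g in MTAL. Scnn1a, the alpha subunit, was present in both segments, with 56.7, 110 and 41.4 TPM in MTAL and 154, 192, 206 and 226 TPM in OMCD (-1.59, SE 0.25, adjusted p = 1.5e-06). Nr3c2, the mineralocorticoid receptor, was also expressed in both, at 7.89 to 13.5 TPM in MTAL and 65.6 to 82.9 TPM in OMCD (-2.62, SE 0.28). Aqp4, the second basolateral water channel of these cells, ran from 516 to 728 TPM in OMCD against at most 0.075 TPM.

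The intercalated cell lists had the same direction: 11 of 11 genes shared by these cells, 7 of 7 of type A cells and 3 of 4 of type B cells were higher in OMCD, against 28.7% of all genes. Foxi1, the transcription factor that defines intercalated cells, was at 412, 364, 453 and 399 TPM in OMCD and at 0.01, 0.05 and 0 TPM in MTAL (-8.64, SE 0.29). Slc4a1, the basolateral anion exchanger of type A cells, measured 1388, 1334, 1836 and 1772 TPM against 0, 0.03 and 0 TPM, and Aqp6, a vesicle channel of the same cells, 563 to 748 TPM against at most 0.01 TPM. Kit (160 to 350 TPM) and Slc26a7, a further anion exchanger (25.2 to 99.3 TPM), were on that list too. Proton pump subunits were not equally restricted. Atp6v1g3 (411 to 572 TPM against at most 0.01) and Atp6v0d2 (301 to 428 against at most 0.04) were nearly absent from MTAL. Atp6v1b1, the B1 subunit, kept 27.5, 27.4 and 8.14 TPM there against 924, 724, 927 and 886 TPM in OMCD (-5.53, SE 0.31). Atp6v0a4, the a4 subunit, kept 40.1, 45.9 and 35 TPM against 120, 70.8, 101 and 105 TPM, and its difference of -1.27 fell below the fold limit under median ratio rescaling and quantile normalization. Carbonic anhydrases went in both directions. Car2, the cytosolic enzyme, was at 588 to 779 TPM in MTAL and 1941 to 2664 TPM in OMCD (-1.76, SE 0.17), Car12 at 1.1 to 1.75 against 382 to 819 TPM, and the membrane-anchored Car4 at 351, 462 and 384 TPM in MTAL against 2.65, 0.64, 3.08 and 2.53 TPM (7.04, SE 0.41).

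Markers of type B cells differed in level within OMCD. Slc4a9, an anion exchanger of type B cells, was at 82.2, 38.4, 80 and 69.3 TPM, the insulin receptor-related gene Insrr at 38.8, 34.5, 34.9 and 48.1 TPM and Spink8 at 204, 299, 252 and 270 TPM, all against at most 0.23 TPM in MTAL. Slc26a4, the apical exchanger pendrin that defines type B cells, reached only 0.33, 9.69, 5.77 and 1.83 TPM in OMCD, under the 10 TPM limit, and is listed at 0 in MTAL.

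Promoter sequences were read as letters only, and no link to transcript levels was tested. The mouse promoter table of RefSeq (build GRCm38.p6) was searched on both strands over the 250 bases before each start for 3 short motifs. These were AAGGTCA, which estrogen-related receptors are known to bind, the forkhead core TGTTTAC, and AGATAA, which GATA factors are known to bind. AAGGTCA was found in 5.64% of 656 windows of genes higher in MTAL, 2.24% of 2856 windows of genes higher in OMCD, and 2.88% of 9841 windows of all genes of at least 10 TPM. It was in 4.08% of all 32851 windows of the table. Of 690 symbols of genes higher in MTAL, 512 were matched to a promoter, and Klk1, Tmem207, Ndufb4, Ndufb2, Atp5g3 and the fatty acid enzyme gene Acadm were among those with a match. Within the citrate cycle and fatty acid lists Acadm was the single match in 43 windows (2.33%, close to the 2.88% of all genes of at least 10 TPM), and 5 of 67 windows of respiratory subunits (7.46%) held one. A match is a run of letters, not a shown binding site. The 3 windows below, each read 5′ to 3′ on the gene's own strand, are shown because they join a secreted enzyme, a fatty acid enzyme and an ATP synthase subunit, all higher in MTAL; capitals mark the match, which is the reverse complement TGACCTT in each. Klk1 lies at chr7:44225110-44225359 (plus strand), Acadm at chr3:153944644-153944893 (minus) and Atp5g3 at chr2:73911327-73911576 (minus).
Klk1: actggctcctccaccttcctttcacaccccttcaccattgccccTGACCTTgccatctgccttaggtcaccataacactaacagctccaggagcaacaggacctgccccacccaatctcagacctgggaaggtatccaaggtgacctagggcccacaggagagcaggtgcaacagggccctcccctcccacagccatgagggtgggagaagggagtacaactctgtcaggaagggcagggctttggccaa
Acadm: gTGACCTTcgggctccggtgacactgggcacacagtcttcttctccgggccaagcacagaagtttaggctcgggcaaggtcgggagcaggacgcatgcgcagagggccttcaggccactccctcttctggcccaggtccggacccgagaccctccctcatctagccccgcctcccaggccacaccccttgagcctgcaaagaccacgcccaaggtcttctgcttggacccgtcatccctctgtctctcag
Atp5g3: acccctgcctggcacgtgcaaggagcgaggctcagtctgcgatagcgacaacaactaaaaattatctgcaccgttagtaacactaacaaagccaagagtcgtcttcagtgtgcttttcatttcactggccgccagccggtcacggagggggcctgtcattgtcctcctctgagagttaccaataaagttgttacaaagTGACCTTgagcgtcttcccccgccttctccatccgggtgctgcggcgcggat

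The forkhead core was in 2.29% of windows of genes higher in MTAL, 2.10% of those higher in OMCD, 2.27% of those of all genes of at least 10 TPM and 3.17% of all windows, and the GATA motif in 5.79%, 6.13%, 5.61% and 9.99%. These shares lay close together in the called genes. Among 16 windows of intercalated cell genes, 1 held the forkhead core, that of Atp6v1b1 (chr6:83742767-83743016, plus strand), and among 11 windows of principal cell genes 2 held the GATA motif, those of Aqp2 (chr15:99578806-99579055, plus strand) and St6gal1. The forkhead letters also stand before Slc12a1 (chr2:125152350-125152599, plus strand), a gene nearly absent from OMCD. Atp6v1b1 and Slc12a1 are shown because they hold the same forkhead letters and have opposite levels, and Aqp2 as the principal cell gene with the GATA letters; capitals mark the match, reversed (TTATCT) in Aqp2.
Atp6v1b1: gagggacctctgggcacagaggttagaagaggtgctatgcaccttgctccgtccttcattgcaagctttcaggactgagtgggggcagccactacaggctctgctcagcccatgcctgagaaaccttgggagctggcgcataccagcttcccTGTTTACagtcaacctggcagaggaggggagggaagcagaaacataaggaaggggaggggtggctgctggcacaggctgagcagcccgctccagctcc
Slc12a1: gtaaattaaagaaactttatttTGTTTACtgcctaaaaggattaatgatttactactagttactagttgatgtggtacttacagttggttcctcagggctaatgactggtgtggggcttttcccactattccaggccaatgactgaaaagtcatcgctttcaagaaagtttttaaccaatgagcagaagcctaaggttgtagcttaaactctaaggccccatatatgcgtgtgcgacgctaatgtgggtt
Aqp2: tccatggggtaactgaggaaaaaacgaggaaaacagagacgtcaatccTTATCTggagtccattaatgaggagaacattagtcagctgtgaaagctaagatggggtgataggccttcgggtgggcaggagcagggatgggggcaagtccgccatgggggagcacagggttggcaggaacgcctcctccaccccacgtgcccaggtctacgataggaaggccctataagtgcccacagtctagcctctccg

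Several hormone receptors differed between the segments. Of 18 listed receptors that raise or oppose cyclic AMP, 10 reached 10 TPM, 2 were higher in MTAL and 7 in OMCD (median -3.13), where all genes gave 7.05%, 28.7% and a median of -0.55. Avpr2, the vasopressin V2 receptor, was expressed in both, but higher in OMCD at 961, 1685, 1228 and 1215 TPM against 103, 139 and 169 TPM (-3.20, SE 0.31, adjusted p = 1.3e-11). Gcgr, the glucagon receptor, had the reverse order with 338, 295 and 232 TPM in MTAL and 26.9, 15.1, 21.5 and 18.8 TPM in OMCD (3.76, SE 0.24). The named transcripts of prostaglandin E2 receptors did not share one direction. Ptger3 (EP3) was at 567, 859 and 763 TPM in MTAL and 1.84, 0.88, 1.28 and 1.01 TPM in OMCD (8.36, SE 0.27, adjusted p = 3.8e-28). Ptger1 (EP1) was at 420, 602, 545 and 464 TPM in OMCD and 2.23, 1.76 and 2.31 TPM in MTAL (-7.37, SE 0.29, adjusted p = 9.4e-25), and Ptger4 (EP4) at 9.04 to 14.5 TPM against at most 0.61 TPM. Of 16 listed genes of paracrine signals, prostaglandins and kinins among them, 6 reached 10 TPM, 2 were higher in MTAL (Klk1 and Kng2), 2 in OMCD (Ptgs1 and Ptges) and 2 not called (median 0.16), beside 7.05% and 28.7% of all genes; median ratio rescaling and quantile normalization each gave 3 and 2. Ptgs1, cyclooxygenase-1, measured 280, 470, 396 and 362 TPM in OMCD and 2.49, 2.98 and 3.43 TPM in MTAL (-6.65, SE 0.28), and Ptges, the inducible prostaglandin E synthase, 47.5 to 52.5 TPM against 0.53 to 2.06 TPM. Adora1, the adenosine A1 receptor (128 to 177 TPM), Ednrb, the endothelin B receptor (32.6 to 48.6 TPM against 6.58 to 10.9), and Avpr1a, the vasopressin V1a receptor (27.1 to 86 TPM, listed at 0 in MTAL), were also higher in OMCD.

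Of 25 adenylyl cyclases, kinase subunits and phosphodiesterases, 15 reached 10 TPM, with 2 higher in MTAL and 5 in OMCD (median -0.68), against 7.05% and 28.7% of all genes. Median ratio rescaling gave 4 and 3, and quantile normalization 3 and 2. The named phosphodiesterases, which break down cyclic nucleotides, did not share one direction. Pde4c was higher in MTAL at 175, 138 and 159 TPM against 24.5, 22, 21.1 and 19.9 TPM (2.79, SE 0.29), while Pde3b (29.3 to 51.9 TPM) and Pde1c (30.7 to 34.1 TPM) reached at most 0.12 and 0.06 TPM in MTAL. Adcy6, a cyclase that vasopressin acts through, was at 20, 20.8 and 22.8 TPM in MTAL and 33.7, 38, 37.1 and 29.8 TPM in OMCD, a difference of -0.68 (95% interval -1.07 to -0.29) that did not reach the fold limit and lay near the median of all genes.

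Kallikrein and kininogen transcripts were both on the MTAL side. Klk1, tissue kallikrein, was at 920, 1431 and 811 TPM against 0.27, 0.12, 0.52 and 0.48 TPM (9.57, SE 0.37), though near-identical kallikrein genes may share its reads. Kng2, a kininogen, was at 3154, 2767 and 2612 TPM against 47.6, 35, 43.8 and 44.9 TPM (6.04, SE 0.44, adjusted p = 2.2e-15).

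Of 12 listed genes of the epidermal growth factor (EGF) family 8 reached 10 TPM, 2 higher in MTAL and 4 in OMCD (median -1.42), against 7.05% and 28.7% of all genes. Egf, which the thick limb sheds into urine, was at 3858, 3028 and 1842 TPM in MTAL and 6.63, 5.24, 5.08 and 3.53 TPM in OMCD (8.85, SE 0.37). Egfr, its receptor, was higher in OMCD at 27.8, 37, 27.7 and 30.7 TPM against 6.7, 7.39 and 6.09 TPM (-2.04, SE 0.22, adjusted p = 2.2e-10), so the ligand and its receptor lay in opposite order. Erbb4, a receptor for neuregulins, was higher in MTAL at 34.2, 28 and 23.1 TPM against 6.14 to 7.38 TPM (1.91, SE 0.31). The receptor gene Erbb3 was higher in OMCD at 39.7 to 42.3 TPM against 18.1, 6.52 and 9.12 TPM. The ligands Btc, at 139, 318, 159 and 202 TPM against 2.6 to 4.68 TPM (-5.46, SE 0.25), and Tgfa, at 17.9 to 24.6 TPM against at most 0.22 TPM, were higher in OMCD too.

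**Figure D3:**
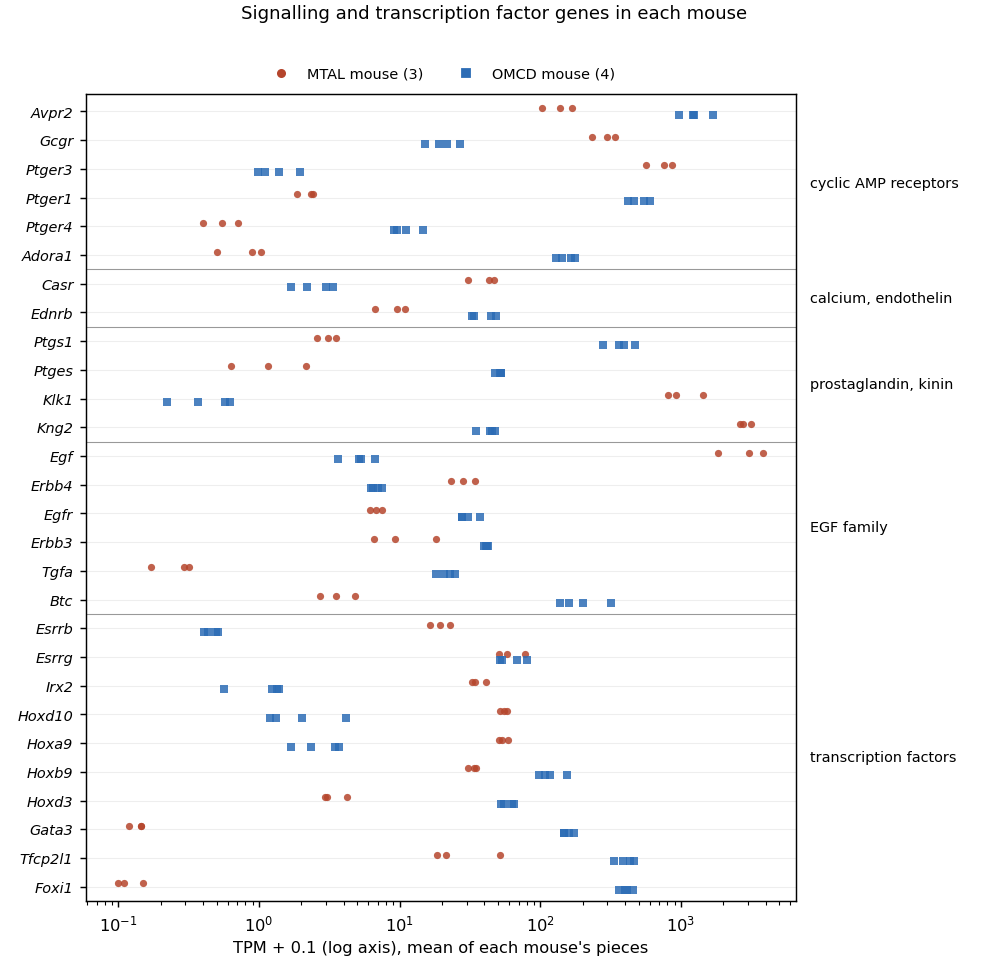
Transcript level of signalling and transcription factor genes in each mouse (x axis, TPM + 0.1 on a log axis, one row per gene); red circles are the 3 MTAL mice and blue squares the 4 OMCD mice. Egf and Egfr, Ptger3 and Ptger1, and Hoxa9 and Hoxd3 lie in opposite order, and Esrrg overlaps.

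Transcripts of mitochondrial energy genes lay on the MTAL side. All 75 listed nuclear genes for subunits of the respiratory chain and ATP synthase had a log2 difference above 0 (0.36 or more, median 1.12), where 25.7% of all 9806 genes did. Of them 45 were called higher in MTAL (7.05% of all genes) and 0 higher in OMCD; their mice did not overlap in 74 of 75, against 73.4% of all genes. Rescaling by the median ratio raised the count to 68 and quantile normalization lowered it to 27, with a positive median in each (1.60 and 0.85). A separate list of 8 further subunits, isoforms and relatives had 4 genes of at least 10 TPM. Of these, 1 was higher in MTAL (Ndufa4, 1.06, SE 0.09) and 1 higher in OMCD (Cox6b2, -1.26, SE 0.29), with a median of 0.69. After median ratio rescaling 3 and 0 were called, and after quantile normalization 0 and 0. Complex I, which takes electrons from NADH, contributed 20 of 36, complexes II to IV 14 of 24, and ATP synthase 11 of 15. These became 32, 22 and 14 after median ratio rescaling and 17, 6 and 4 after quantile normalization. Ndufb3, of complex I, had the smallest difference of the 75, at 338, 353 and 433 TPM against 280, 266, 322 and 296 TPM (0.36, 95% interval 0.05 to 0.66). Uqcrc1 of complex III (1844, 1998 and 1757 TPM against 452, 521, 504 and 531 TPM, 1.90, SE 0.11), Sdhb of complex II (1.81, SE 0.16) and Atp5g1 of ATP synthase (1.91, SE 0.15) were higher in MTAL by more. Atp5b, the catalytic beta subunit, was at 10973, 11613 and 10491 TPM against 4091, 4061, 4813 and 4880 TPM (1.31, SE 0.16).

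Transcripts of the mitochondrial genome itself moved the same way. They summed to 81372, 53410 and 84610 TPM in the MTAL mice and to 17200, 18623, 18693 and 18503 TPM in the OMCD mice. Of the protein genes with values, 7 of 7 were higher in MTAL (median 2.02), against 7.05% of all genes. After median ratio rescaling 7 of 7 were again higher in MTAL, against 12.2% of all genes. Quantile normalization left 5 of 7 (median 1.26), against 1178 of all 9806 genes. Since shares of a library add up, taking these transcripts out and rescaling the rest shifted the median of all genes by 0.08 and left 754 genes higher in MTAL (7.70%) and 2560 in OMCD (26.1%).

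Fuel genes followed in part. Of 19 genes for fatty acid oxidation and ketone use, 18 reached 10 TPM and 12 were higher in MTAL (median 1.3), and of 21 citrate cycle genes 6 were higher in MTAL and 1 in OMCD (median 0.79), against 7.05% and 28.7% of all genes. After median ratio rescaling 15 citrate cycle genes were higher in MTAL and 0 in OMCD, and after quantile normalization 8 and 0. Enzymes of ketone use were among the 12: Oxct1, the enzyme that activates acetoacetate, was at 1119, 1175 and 1068 TPM against 154, 216, 237 and 215 TPM (2.46, SE 0.18), Bdh1, which oxidises hydroxybutyrate, at 149, 209 and 192 TPM against 5.48, 14.7, 14.6 and 20.4 TPM (3.77, SE 0.30), and Acat1 at 362 to 416 against 93.2 to 117 TPM (1.87, SE 0.21). Acadvl, which starts oxidation of very long fatty acids, was at 762, 733 and 668 TPM against 176, 155, 182 and 196 TPM (2.02, SE 0.16). In the citrate cycle Idh2 (2656 to 2715 against 727 to 864 TPM, 1.73, SE 0.14) and Mdh2 (1443 to 1664 against 475 to 550 TPM, 1.58, SE 0.17) were higher in MTAL, whereas Cs, citrate synthase, was at 292, 401 and 292 TPM against 248, 253, 275 and 271 TPM, a difference of 0.31 with a 95% interval of 0.00 to 0.62.

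Of 24 listed glycolytic genes 19 reached 10 TPM, 2 were higher in MTAL, 2 in OMCD and 15 not called (median 0.26), the MTAL share being near the 7.05% of all genes and the OMCD share under their 28.7%; median ratio rescaling gave 7 and 0, and quantile normalization 3 and 2. The lactate dehydrogenase genes lay in opposite order. Ldha, the form that favours lactate production, was lower in MTAL at 511, 615 and 747 TPM against 1295, 1572, 1648 and 1352 TPM (-1.24, SE 0.14), a difference that became -0.76 after median ratio rescaling. Ldhb, the heart-type form, was at 6298, 6424 and 5859 TPM against 2932, 3231, 3482 and 3683 TPM, a difference of 0.90 that missed the fold limit and passed it at 1.38 after that rescaling. Slc2a1, the glucose carrier GLUT1, was at 125, 221 and 149 TPM in MTAL and 333, 465, 422 and 428 TPM in OMCD (-1.35, SE 0.23). It was not called after median ratio rescaling, where 0 listed glycolytic genes were higher in OMCD. Slc16a7, the monocarboxylate carrier MCT2 with high affinity for lactate and ketones, was higher in MTAL at 450, 592 and 657 TPM against 66, 71.3, 89 and 97.9 TPM (2.79, SE 0.27), as was the phosphofructokinase Pfkp (1.18, SE 0.21).

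**Figure D4:**
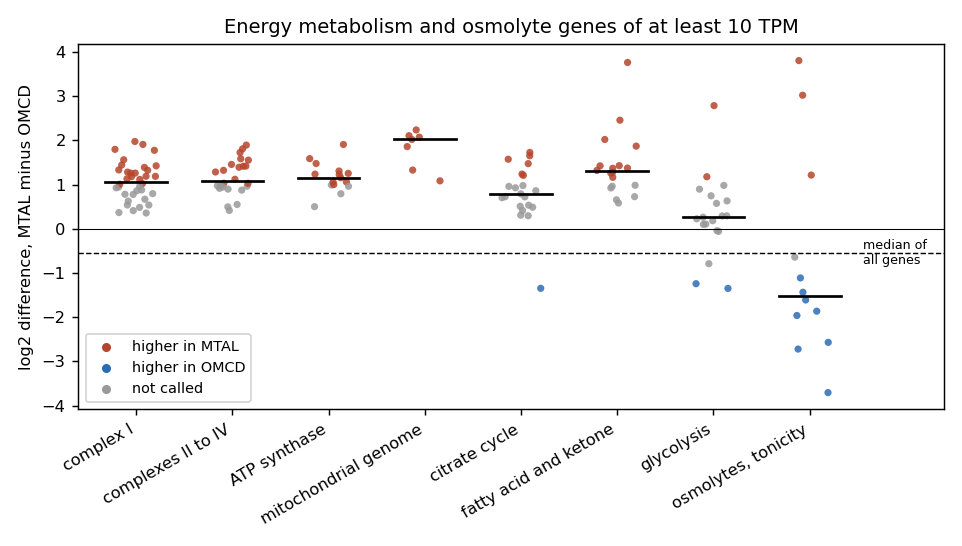
Log2 difference (MTAL minus OMCD, y axis) of each listed gene of at least 10 TPM, by list (x axis); red is higher in MTAL, blue higher in OMCD, grey not called, bars are list medians and the dashed line is the median of all 9806 genes, -0.55. The lists of respiratory complexes, ATP synthase, mitochondrial genome, citrate cycle and fatty acid genes have medians from 0.79 to 2.02, glycolysis 0.26 and osmolytes -1.52.

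Genes of organic osmolytes, the small solutes that cells of the salty medulla gather, were called in both directions. Of 12 listed genes, 3 were higher in MTAL and 8 in OMCD (median -1.52), with 6 in OMCD after median ratio rescaling and 5 after quantile normalization. Of all genes 7.05% were higher in MTAL and 28.7% in OMCD, the latter 16.6% and 13.8% after these rescalings. Slc5a3, the sodium-dependent inositol carrier, was at 135, 192 and 118 TPM in MTAL and 17.1, 20.9, 15 and 14.9 TPM in OMCD (3.02, SE 0.34). Carriers for betaine and taurine went the other way: Slc6a12 was at 18.3, 67.2, 35.8 and 20.3 TPM in OMCD against 6.45 to 7.86 TPM (-1.96, SE 0.48), and Slc6a6 at 54.7, 53.1, 42.6 and 49.3 TPM against 1.31, 3.9 and 5.65 TPM (-3.71, SE 0.38). Sorbitol is made by aldose reductase and removed by sorbitol dehydrogenase. Akr1b3, the reductase, was higher in OMCD at 109, 151, 108 and 90.5 TPM against 30.6, 32 and 28.4 TPM (-1.86, SE 0.27), and Sord, the dehydrogenase, higher in MTAL at 233, 158 and 174 TPM against 5.99, 13.8, 19.5 and 14.5 TPM (3.81, SE 0.27). Nfat5, the tonicity-responsive transcription factor, ran at 21 to 29.6 TPM in OMCD and 6.84 to 9.38 TPM in MTAL (-1.61, SE 0.17), though quantile normalization left -0.84. Heat shock genes Hspa1b (136 to 236 against 19 to 49.3 TPM, -2.72, SE 0.60) and Cryab (732 to 860 against 241 to 354 TPM, -1.44, SE 0.22) were higher in OMCD. Hspa1b has a near-identical copy with which it may share reads. Early-response genes, given below, were also mostly called higher in OMCD on the TPM as deposited. The part of tissue handling in the heat shock differences was not tested.

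Transcription factors were called in both directions. Of 44 listed, 35 reached 10 TPM, 9 were higher in MTAL and 19 in OMCD (median -1.39), against 7.05% and 28.7% of all genes. On the MTAL side Esrrb, an orphan nuclear receptor, was at 19.1, 22.6 and 16.5 TPM against 0.40, 0.41, 0.31 and 0.34 TPM (3.90, SE 0.18, adjusted p = 2.7e-22). Its relative Esrrg overlapped between the segments at 51.1, 57.9 and 77.6 TPM against 51.5, 53.4, 79.7 and 68.2 TPM, with a difference of -0.03 and a 95% interval of -0.60 to 0.54, and its sign turned under each of 3 rescalings. Ppargc1a, the coactivator PGC-1 alpha that drives mitochondrial genes, was at 279, 301 and 218 TPM against 89.3, 94.3, 96.5 and 97.1 TPM (1.47, SE 0.20). Irx2 (32.7 to 41.1 against 0.46 to 1.28 TPM) and Tfap2b (75.2 to 94 against 17.1 to 27.5 TPM) were higher in MTAL.

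In OMCD, Gata3 (160, 173, 147 and 148 TPM against at most 0.045, log2 difference -7.25, SE 0.24) and Gata2 (146, 189, 207 and 208 TPM against 1.05 to 2.26) were nearly absent from MTAL, as was Foxi1. Tfcp2l1, which shapes principal and intercalated cells, was at 335, 387, 466 and 432 TPM against 21.4, 51.9 and 18.2 TPM (-3.84, SE 0.33). Elf5, a principal cell factor, was at 43 to 51.9 TPM and is listed at 0 in all MTAL mice. The duct and nephron regulators Pax8 (261 to 503 against 83 to 106 TPM, -1.93, SE 0.21) and Pax2 (10.5 to 17.9 against 1.72 to 2.83 TPM) were higher in OMCD.

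Homeobox genes, which mark position along the body, also went both ways. Hoxd10 was at 51.2, 57.9 and 54.9 TPM in MTAL and 1.22, 1.1, 4.07 and 1.93 TPM in OMCD (4.33, SE 0.33), Hoxa9 at 50.6, 53.6 and 59 TPM against 1.6 to 3.58 TPM (3.94, SE 0.17), and Hoxa10 at 16 to 19.6 TPM against 0.43 to 2.08 TPM (3.35, SE 0.24). Hoxd3 had the opposite order, with 64.9, 62.5, 55 and 52.7 TPM in OMCD and 2.83, 2.96 and 4.11 TPM in MTAL (-3.81, SE 0.22), as had Hoxb9 at 97.9 to 155 TPM against 30.5 to 34.5 TPM (-1.81, SE 0.18).

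Adhesion and filament genes of epithelia were mostly on the OMCD side. Of 13 adhesion genes 12 reached 10 TPM and 11 were higher in OMCD (median -2.15), and of 8 filament genes 5 reached 10 TPM and all 5 were higher there (median -2.28), against 28.7% of all genes. The counts became 9 and 3 after median ratio rescaling and 10 and 5 after quantile normalization. Cdh16, the kidney-specific cadherin, was at 6251, 7558, 6666 and 7115 TPM against 1799, 2121 and 1614 TPM (-1.91, SE 0.19), Cdh1, E-cadherin, at 693 to 853 against 154 to 197 TPM (-2.10, SE 0.22), and the tetraspanin Cd9 at 585 to 651 against 22.4 to 56.7 TPM (-4.24, SE 0.18). Krt18 was at 404, 490, 452 and 524 TPM against 32.9, 10.3 and 11.1 TPM (-4.81, SE 0.36), while Krt7 was common in both at 470 to 524 against 176 to 258 TPM (-1.11, SE 0.18), and without MTAL mouse 3 its difference was -0.93. Muc1, a mucin gene of inherited tubule disease like Umod, was at 646 to 1056 TPM against 25.2 to 60.9 TPM (-4.12, SE 0.27). Kcnq1, a potassium channel, was at 220 to 253 TPM against 19 to 34.8 TPM (-3.08, SE 0.28).

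In the Wnt pathway 10 of 22 listed genes reached 10 TPM, 2 higher in MTAL and 4 in OMCD (median -0.54, near that of all genes), against 7.05% and 28.7% of all genes; 3 were higher in OMCD after median ratio rescaling and after quantile normalization. The collecting duct ligand gene Wnt9b was at 51.5, 93.7, 90.7 and 67.6 TPM in OMCD and 0.60 to 1.34 TPM in MTAL (-5.31, SE 0.28), and the receptor gene Fzd1 at 43.3, 77.8, 80.7 and 81.2 TPM against 2.75 to 4.97 TPM. Sostdc1, a secreted inhibitor of the pathway, was at 608, 650 and 698 TPM in MTAL against 37.8, 87.1, 79.5 and 68.7 TPM (3.31, SE 0.31). In the Notch pathway, which divides principal from intercalated fates, 4 of 15 genes reached 10 TPM and all 4 were higher in OMCD, against 28.7% of all genes; 2 stayed called after quantile normalization. Notch2 ran at 24.6 to 34.5 TPM against 2.44 to 4.2 TPM (-2.76, SE 0.25), the ligand gene Dll1 at 14.2 to 25.4 TPM against 0.64 to 0.84 TPM (-3.49, SE 0.28), and the target Hes1 at 48.8, 138, 72.6 and 146 TPM against 23.5, 53.5 and 24.5 TPM (-1.51, SE 0.40). The mice overlapped for Hes1.

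The same contrast was set against the cortex, where CTAL and CCD replace MTAL and OMCD and no sample is shared. The difference of differences, (MTAL minus OMCD) minus (CTAL minus CCD), was called for 1295 of 10167 genes of at least 10 TPM in any of the 4 segments (same fit, adjusted p under 0.05, size at least 1), 271 above 0 (2.67%) and 1024 below 0 (10.1%). The share above 0 was 20.9% of calls on the TPM as deposited, 31.2% after median ratio rescaling and 40.8% after quantile normalization. The higher background of the OMCD libraries, given above for odorant receptors, is on one side of this contrast, and its part in the calls below 0 was not tested. Endothelial markers moved with it: 8 of the 10 listed were called below 0, and their sum was 509 to 657 TPM in OMCD against 181 to 288 TPM in CCD, and 219 to 436 TPM in MTAL against 282 to 592 TPM in CTAL. AU021092, called at -5.41 (SE 0.59), was at 230 to 642 TPM in OMCD and at 9.62 to 16.8 TPM on average in CCD and CTAL, alongside the higher background of OMCD.

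**Figure D5:**
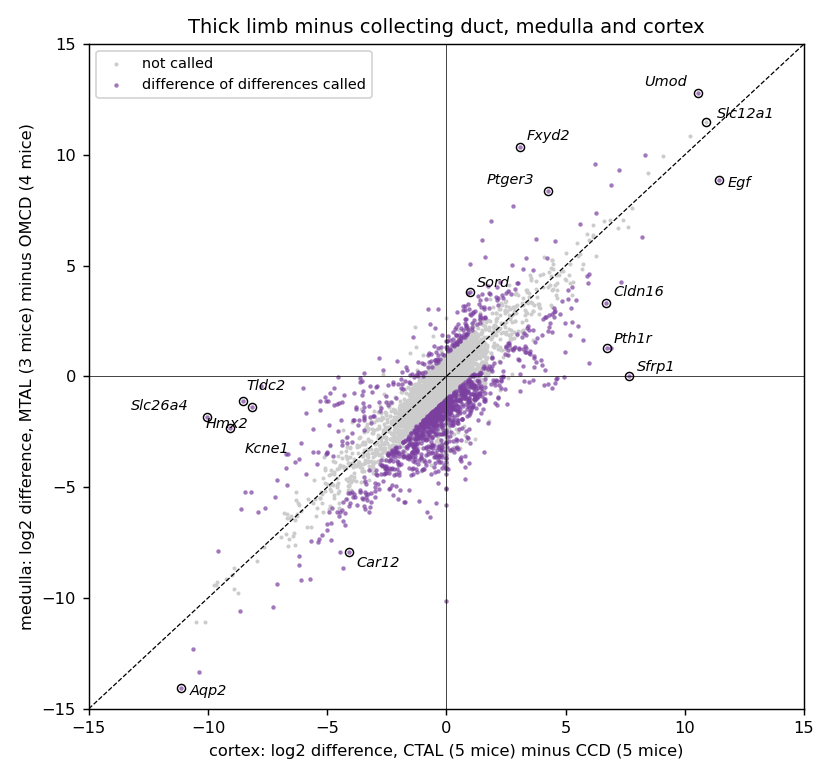
Log2 difference of thick limb minus collecting duct in the cortex (x axis, CTAL minus CCD, 5 mice each) and in the medulla (y axis, MTAL of 3 mice minus OMCD of 4 mice) for 10167 genes; purple points are the 1295 called genes, and the dashed line marks equal differences. Slc12a1 lies near the line, Fxyd2 far above it, and Sfrp1 and Pth1r far below it.

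Genes of type B intercalated cells had higher levels in CCD than in OMCD, and all 4 listed ones had a difference of differences called above 0 (2.67% of all genes). Slc26a4 was at 1769 ± 364 TPM (SD, n = 5) in CCD, where OMCD held at most 9.69 TPM, and its difference of differences was 8.20 (SE 0.45, adjusted p = 3.2e-18). Outside that list were Tldc2 (7.42, SE 0.52), the homeobox gene Hmx2 (6.79, SE 0.34) and the potassium channel subunit gene Kcne1 (6.76, SE 0.28). They had 520 ± 43.9, 313 ± 62.5 and 668 ± 36.1 TPM in CCD (SD, n = 5) and at most 11.5, 3.61 and 5.94 TPM in OMCD. The listed Insrr (2.98, SE 0.29) and Slc4a9 (2.64, SE 0.29) pointed the same way, at 352 ± 50.4 and 865 ± 144 TPM in CCD. Calb1, the calcium buffer and not on that list, was also called above 0 (3.26, SE 0.45), at 468 ± 50.2 TPM in CCD. With a pseudocount of 0.1 the values of Slc4a9 and Calb1 fell to 0.58 and 1.76 and were not called. Their levels in MTAL were at most 0.12 and 0.005 TPM.

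Of 7 listed genes of type A cells 5 were called below 0, against 10.1% of all genes. Other collecting duct lists had calls below 0 too: 4 of 11 principal cell genes (0 above 0) and 4 of 11 genes shared by intercalated cells (1 above 0). Slc26a7 had 8.16 ± 2.32 TPM in CCD (SD, n = 5) and up to 99.3 TPM in OMCD, with a difference of differences of -3.86 (SE 0.39, adjusted p = 4.1e-10). The water channel Aqp4 was likewise at 68.8 ± 14.0 TPM in CCD and between 516 and 728 TPM in OMCD (-3.39, SE 0.33). Car12 had the value -3.85 (SE 0.42) with 103 ± 18.4 TPM in CTAL and 1751 ± 270.4 TPM in CCD (SD, n = 5), and at most 1.75 TPM in MTAL.

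On the log2 scale the excess of the thick limb over the collecting duct was larger in the medulla for Fxyd2, Ptger3, Sord and Klk1. Fxyd2, at 4738 ± 739 TPM in CTAL and 567 ± 120 TPM in CCD (SD, n = 5), had a cortical difference of 3.08 and a medullary one of 10.35, giving 7.28 (SE 0.24, adjusted p = 2.6e-26). Ptger3 had 507 ± 66.1 TPM in CTAL and 25.6 ± 4.73 TPM in CCD, for a value of 4.10 (SE 0.35). Sord was at 175 ± 30.8 TPM in CTAL and 88 ± 11 TPM in CCD, so that its excess in the thick limb was larger in the medulla (2.83, SE 0.36, adjusted p = 1.1e-07). Klk1 was higher in the cortex in both structures, at 9245 ± 1307 TPM in CTAL and 133 ± 71.3 TPM in CCD, and still gave 3.33 (SE 0.48).

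Several named genes below the line were higher in CTAL than in MTAL. Sfrp1, a Wnt inhibitor, was at 305 ± 58.1 TPM in CTAL (SD, n = 5) and at 0.88, 3.65 and 0.89 TPM in MTAL, for a difference of differences of -7.66 (SE 0.40, adjusted p = 8.2e-19). The adaptor gene Shd (255 ± 31.0 TPM in CTAL, 5.58 to 8.85 in MTAL, -5.65, SE 0.57), the parathyroid hormone receptor gene Pth1r (594 ± 99.8 against 2.06 to 9.44 TPM, -5.45, SE 0.39) and the phosphatase gene Dusp9 (69.6 ± 29.1 against at most 0.56 TPM, -5.40, SE 0.28) showed the same order. Cldn16 was at 482 ± 23.8 TPM in CTAL, above its 21 to 98 TPM in MTAL (-3.37, SE 0.50, adjusted p = 3.1e-06), and Egf at 16508 ± 2260 TPM against 1842 to 3858 TPM (-2.58, SE 0.49).

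Marker lists of other cells were not at equal levels. The 10 endothelial markers summed to 219 to 436 TPM in the MTAL mice and 509 to 657 TPM in the OMCD mice, and 4 of the 8 that reached 10 TPM were called higher in OMCD (median -1.0); 1 stayed called after median ratio rescaling and 0 after quantile normalization, at or under the 16.6% and 13.8% of all genes (28.7% on the TPM as deposited). The 14 leukocyte markers summed to 129 to 235 TPM in MTAL and 51.8 to 125 TPM in OMCD, with Trac and Lyz2 called higher in MTAL of 4 that reached 10 TPM (7.05% of all genes). Proximal tubule markers (12 genes) summed to 25.1 to 80.8 TPM in MTAL and 37.4 to 49.8 TPM in OMCD. In the cortex they summed to 225 to 691 TPM in CTAL and 220 to 815 TPM in CCD, and 1 had a difference of differences called below 0. In MTAL and OMCD stromal markers (10 genes) summed to at most 42.3 TPM, and erythrocyte markers (5 genes) to at most 0.64 TPM. Of 10 thin limb markers, 2 reached 10 TPM and both were higher in MTAL, against 7.05% of all genes; they are genes that the thick limb is also known to express, Cldn10 among them. The list summed to 2096 to 2335 TPM in MTAL and 117 to 143 TPM in OMCD. Its other 8 members had group means under 10 TPM, Psca with 9.07 ± 6.18 TPM in MTAL (SD, n = 3) being the highest of them there. Early-response genes, which dissection can induce, were unequal as well: 11 of 14 reached 10 TPM and 8 were called higher in OMCD (median -1.49), 4 after median ratio rescaling and 3 after quantile normalization, against 28.7%, 16.6% and 13.8% of all genes. Fos was at 60.1, 14.2, 332 and 268 TPM in OMCD and 0.49, 0.47 and 19.5 TPM in MTAL, and Junb at 122, 90.8, 368 and 341 TPM against 25.8, 53.5 and 32.3 TPM, with OMCD mice 3 and 4 highest in both. The part of these transcripts in the differences between the segments was not tested.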

How the data were processed

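Segments were microdissected, and the labels' protocols name Direct-zol columns for RNA, SMARTer V4 for cDNA from polyA RNA and Nextera XT for the libraries. The submitters' processing notes name STAR 2.5.4a and RSEM 1.3.0; the genome build is not given in the sources used here. The table deposited by the authors gives TPM for 54532 genes, all columns adding up alike, without depth, so precision rests on the number of mice alone. Of its columns, 14 segment means by the authors were not used, 0 sample columns were left aside, and 3 single-cell samples were not analysed here. No MTAL and OMCD columns were identical (0).

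Pieces were averaged per mouse as log2(TPM + 1). Genes with at least 1 TPM in at least 3 mice were fitted with limma 3.58.1 (R 4.3.3; lmFit, then eBayes with a trend), 15 groups of 53 mice sharing the spread, two-sided, Benjamini-Hochberg adjusted over 33793 genes. The fit was tested on simulated data. A symbol carried by 2 identifiers (2 list genes) stands for the more abundant. The members, lists, motifs and named genes were chosen with earlier results of these data known. Named were list genes, the 12 genes per direction with the largest called difference and mice that did not overlap, and the 5 per direction with the largest called difference of differences, passing over Gm, Rik, mitochondrial, ribosomal and pseudogene names. Promoters came from RefSeq (GRCm38.p6), matched by symbol. Tried besides were other pseudocounts (0.1, 5), a 5 TPM filter or none, 3 rescalings, other treatments of pieces, a fit of MTAL and OMCD alone, a replicate block, other level limits and leaving out each mouse of the segments compared. Python 3.11.15, pandas 2.3.3, numpy 2.4.6 and matplotlib 3.10.9 were used. Values of some list genes are not reported here.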

Additional observations from a re-analysis of the deposited data

Results flagged for a closer look

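In OMCD, where 116 named genes had 4 mice to compare, 4 had 1 mouse set apart from the other three by a gap that took most of the group's range (0.863 of it or more), a share close to what chance gives (about 1 in 20 groups). OMCD mouse 1 was the lowest for Mcoln3 (453 TPM, the next at 773) and Fzd1 (43.3 TPM, the next at 77.8). OMCD mouse 2 was the lowest for Rhbg, an ammonia channel gene (478 TPM, the next at 663), and the highest for Pax2 (17.9 TPM, the next at 11.2). Without mouse 1 or without mouse 2, the differences of these 4 genes between MTAL and OMCD kept their calls.

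The difference between thick limb and collecting duct differed between medulla and cortex, by the test of the difference itself, for the 21 genes whose value the report gives. It lay above 0 for Slc26a4 (8.20), Tldc2 (7.42), Fxyd2 (7.28), Hmx2 (6.79), Kcne1 (6.76), Ptger3 (4.10), Klk1 (3.33), Calb1 (3.26), Insrr (2.98), Sord (2.83) and Slc4a9 (2.64). It lay below 0 for Sfrp1 (-7.66), Shd (-5.65), Pth1r (-5.45), AU021092 (-5.41), Dusp9 (-5.40), Slc26a7 (-3.86), Car12 (-3.85), Aqp4 (-3.39), Cldn16 (-3.37) and Egf (-2.58).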

How the results depend on the processing

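Genes higher in MTAL numbered 691 on the TPM as deposited, 1199 after median ratio rescaling and 1178 after quantile normalization, and genes higher in OMCD 2812, 1631 and 1358; 691 and 661 of the MTAL calls and 1631 and 1353 of the OMCD calls were shared with the first. A level limit of 30 TPM left 1460 genes higher in OMCD and no limit gave 6937. Leaving out each MTAL or OMCD mouse gave 677 to 711 genes higher in MTAL and 2623 to 2893 higher in OMCD; between medulla and cortex it gave, with each CTAL or CCD mouse left out as well (chosen after seeing the data), 1125 to 1328. The design text of the series counts 53 mice, as many as the labels have combinations of segment and mouse number. The labels of single samples do not state whether numbers are shared between segments. Deviations of same-numbered MTAL and OMCD mice correlated at 0.04, 0.11 and 0.11, and the numbers were not taken as pairs. The mouse number as a replicate block gave 703 and 2797 genes. Of 138 named genes, 121 kept direction and call in every alternative run and 135 never changed sign; of 21 differences between medulla and cortex, 19 kept both. Uncalled genes changed sign: Kcnj1 to 0.32 after median ratio rescaling, Atp1b1 to -0.23 after quantile normalization, and Esrrg to 0.44, 0.35 and 0.048 under the 3 rescalings and 0.0096 under the block, where OMCD mouse 4 has no partner, and it ran from -0.21 to 0.11 when each mouse was left out. The depth of the libraries is unknown, so values near 0 carry no limit of detection.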
